A study of Danio rerio with 4 samples.

Results

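CpG-dense windows are stretches of 1 kb of the zebrafish genome that hold at least 50 CpG dinucleotides. They were taken on a fixed grid over the 25 nuclear chromosomes, whatever their DNA methylation, and a window entered when each of the 4 methylomes had at least 20 reads over its CpGs. Of 32055 windows with 50 or more CpGs, 25768 met the read minimum. These made up 1.9% of the 1354664 windows with at least 1 CpG and held 1610834 CpGs, or 6.65% of all nuclear CpGs. The median CpG-dense window held 58 CpGs and the densest 179, against a median of 16 CpGs in the 1131727 windows with 6 to 49 CpGs that met the same read minimum. The limit of 50 CpGs fell in a continuous range. At 4 hpf (hours post fertilization) 11.3% of the 2056 windows with exactly 50 CpGs had less than 25% methylation, and so did 11.1% of the 2236 windows with exactly 49 CpGs.

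The methylomes came from whole-genome bisulfite sequencing of whole zebrafish embryos at 2, 4, 8 and 24 hpf, that is, from cleavage, the dome stage, epiboly and an embryo with a formed body axis. No treatment is named, and there was 1 library per stage. Differences between stages therefore compare 2 libraries and have no replicate check, so no test between stages is given. The number of embryos per library and their strain were not given in the sources used here. Coverage summed over nuclear CpGs was 693553384, 506486388, 194648540 and 299121963 at 2, 4, 8 and 24 hpf, with a median coverage of 27, 19, 6 and 10 reads per CpG. Numbers of reads over a window are such sums too, in which a read counts once for each CpG it crosses. All intervals below are 95% Wilson intervals for counting error only. For the level of a window they are too narrow for the same reason.

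In vertebrates a methyl group on cytosine is found almost entirely at CpGs, most of which are methylated. The best known exceptions are CpG islands, short CpG-rich stretches that often lie at promoters and stay free of methylation. Methylated cytosine is prone to mutate, so CpGs are lost over time from sequence that is methylated in the germ line. Young repeated elements can hold many CpGs too and are usually methylated. Density alone therefore puts together stretches of unlike kind, and bisulfite sequencing reads the state of each CpG within them.

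Most CpG-dense windows were methylated at every stage, and a minority was almost free of methylation. The level of a window was the share of methylated reads among all reads over its CpGs. A window is called unmethylated under 25%, methylated over 75% and intermediate from 25% to 75%. Unmethylated windows numbered 2475, 2512, 2451 and 2357 at 2, 4, 8 and 24 hpf, or 9.6%, 9.75%, 9.51% and 9.15% of the CpG-dense windows. Intermediate windows numbered 626, 639, 720 and 718, or 2.43%, 2.48%, 2.79% and 2.79%. Methylated windows numbered 22667, 22617, 22597 and 22693, or 88%, 87.8%, 87.7% and 88.1%. The split thus moved by less than 1 percentage point in any class over the 4 libraries.

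Windows with fewer CpGs were split differently. Among CpG-dense windows 9.75% were unmethylated at 4 hpf, against 3.1% of windows with 6 to 49 CpGs. Intermediate levels made up 2.48% of CpG-dense windows and 5.72% of the others at that stage. At 24 hpf they made up 2.79% of CpG-dense windows and 8.82% of the others. CpG-dense windows were 2.23% of all windows with 6 or more CpGs, and they made up 7.05%, 6.68%, 7.31% and 7.46% of the unmethylated ones at 2, 4, 8 and 24 hpf. The windows with 6 to 49 CpGs had fewer reads, with medians of 484, 329, 135 and 199 at these stages. CpG-dense windows had medians of 1044, 943, 227 and 446. The part of read number in these shares was not tested.

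**Figure D1:**
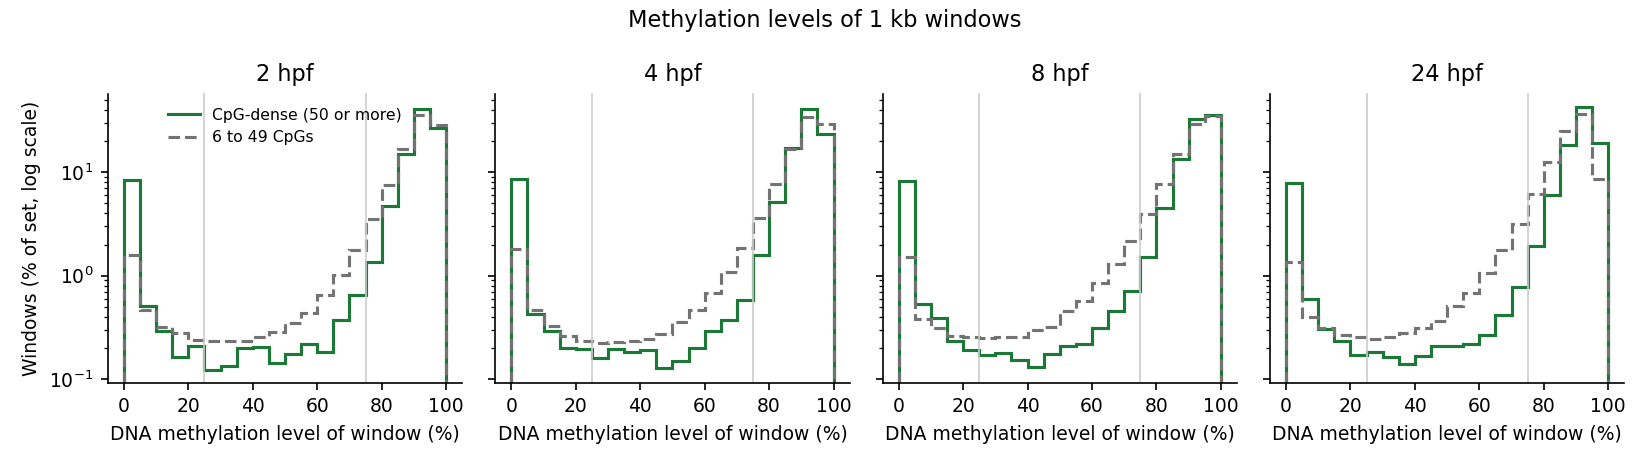
Distribution of the DNA methylation level of 1 kb windows, in bins of 5 points, for the 4 libraries. The x axis gives the level in percent and the y axis, on a log scale, the percent of windows, for CpG-dense windows (solid green) and for windows with 6 to 49 CpGs (dashed grey). Vertical lines mark 25% and 75%. The lowest bin held 8.43% of CpG-dense windows at 2 hpf and 7.84% at 24 hpf, and in all 4 panels the green line stands above the grey one there and below it from about 25% to 75%.

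The levels lay close to the ends of the scale. The median level of unmethylated CpG-dense windows was 1.01%, 0.894%, 0.702% and 1.02% at 2, 4, 8 and 24 hpf. Unmethylated windows with 6 to 49 CpGs had medians of 3.98%, 3.18%, 3.51% and 4.46%. At 24 hpf, 2021 of the 2357 unmethylated CpG-dense windows were under 5%. Methylated CpG-dense windows had a median of 93.3%, 92.9%, 94.1% and 92.4%. Between these peaks the intermediate windows had medians from 60.6% to 62.7%, with quartiles of 41.6% and 69.6% at 4 hpf, so most of them lay nearer to the methylated side.

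CpG-dense windows differed most from windows with 6 to 49 CpGs in median level at the last stage. The median level of CpG-dense windows was 92.6%, 92.1%, 93.3% and 91.7% at 2, 4, 8 and 24 hpf, and that of windows with 6 to 49 CpGs was 92.4%, 92.3%, 92.8% and 89.2%. These medians are over windows of all classes. Among methylated windows alone the medians at 24 hpf were 92.4% in CpG-dense windows and 90.1% in the others. Window by window, over all classes, the median difference of 24 minus 8 hpf was -1.20 points in CpG-dense windows and -2.98 points in the others. The drop was graded by CpG count. Windows with 6 to 9 CpGs had a median of 87.8% at 24 hpf, against 92.7% at 8 hpf. With 20 to 29 CpGs the medians were 89.8% at 24 hpf, against 92.8% at 8 hpf. With 50 to 59 CpGs they were 91.1% at 24 hpf, against 92.8% at 8 hpf, and with 80 to 99 CpGs 93.3% at 24 hpf, against 94.7% at 8 hpf. At 24 hpf 61.6% of CpG-dense windows were over 90%, against 44.8% of the others. At 2 hpf these shares were 66.8% and 63.9%.

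The share of unmethylated windows did not go up steadily with CpG count. At 4 hpf it was 0.74% with 6 to 9 CpGs, 4.72% with 20 to 29 and 10.3% with 40 to 49. It was 11.3% with 50 to 59 CpGs, 10.8% with 60 to 69, 5.73% with 70 to 79 and 4.26% with 80 to 99. In the 222 windows with 100 to 179 CpGs it was 14.4%. The decline above 70 CpGs went with repeated sequence, described next: the share of windows with a repeated CpG spacing pattern was 63.2% with 50 to 59 CpGs, 81.6% with 70 to 79 and 85.8% with 80 to 99.

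The files hold the position of every CpG, so the distances between successive CpGs served as a fingerprint of the sequence. A spacing pattern was a run of 12 successive distances, covering 13 CpGs of 1 window and at least 100 bp, read in both directions. A pattern found in 2 or more places of the nuclear genome was called repeated. Each CpG at which the run starts is a place, so places can overlap, and a tandem stretch within 1 window can make its pattern repeated. At least 1 repeated pattern was found in 17751 CpG-dense windows (68.9%), against 10.5% of the windows with 13 to 49 CpGs, which hold fewer patterns each. The share was graded by CpG count, with 29.8% at 30 to 39 CpGs, 53.1% at 40 to 49 and 63.2% at 50 to 59. Of all patterns in CpG-dense windows 36.3% were repeated, against 7.55% of those in the windows with 13 to 49 CpGs. In 8013 CpG-dense windows each pattern was found in 1 place, and 4 windows held no run that spanned 100 bp. Successive CpGs were a median of 10 bp apart in CpG-dense windows and 22 bp apart in windows with 13 to 49 CpGs. A distance of 2 bp, which is the sequence CGCG, made up 11.1% of distances in CpG-dense windows and 4.03% in the others.

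The repeated windows were nearly all methylated, while those with patterns in 1 place were mostly methylated but had a far larger unmethylated share. Among the 8013 CpG-dense windows with patterns in 1 place, 28.6% were unmethylated at 4 hpf and 69.3% methylated. Among the 4818 windows whose most frequent pattern was in 2 to 9 places, 2.68% were unmethylated. The share was 1.35% with 10 to 49 places, 0.91% with 50 to 99 places and 0.413% in the 7757 windows with 100 places or more. At 24 hpf these shares were 27.9%, 1.85%, 0.614%, 0.284% and 0.116%. The median level over all classes at 24 hpf was 88.6% with patterns in 1 place and 93.3% with 100 places or more. Windows with 6 to 49 CpGs had 89.2%. At 2 hpf the medians were 90.1% with patterns in 1 place and 92.4% with 6 to 49 CpGs, so the former stood lower already then. These medians include the unmethylated windows, a larger share with patterns in 1 place, so they do not compare methylated windows. The median difference of 24 minus 8 hpf with patterns in 1 place, also over all classes, was -0.79 points. With 6 to 49 CpGs it was -2.98 points. The windows with patterns in 1 place had a higher unmethylated share at each CpG count above 50, with 27.1% at 50 to 59 CpGs, 31.3% at 60 to 69, 30.9% at 70 to 79, 29% at 80 to 99 and 40.3% at 100 to 179. The number of places and coverage moved together, as given further on, and the part of coverage in these shares was not tested.

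**Figure D2:**
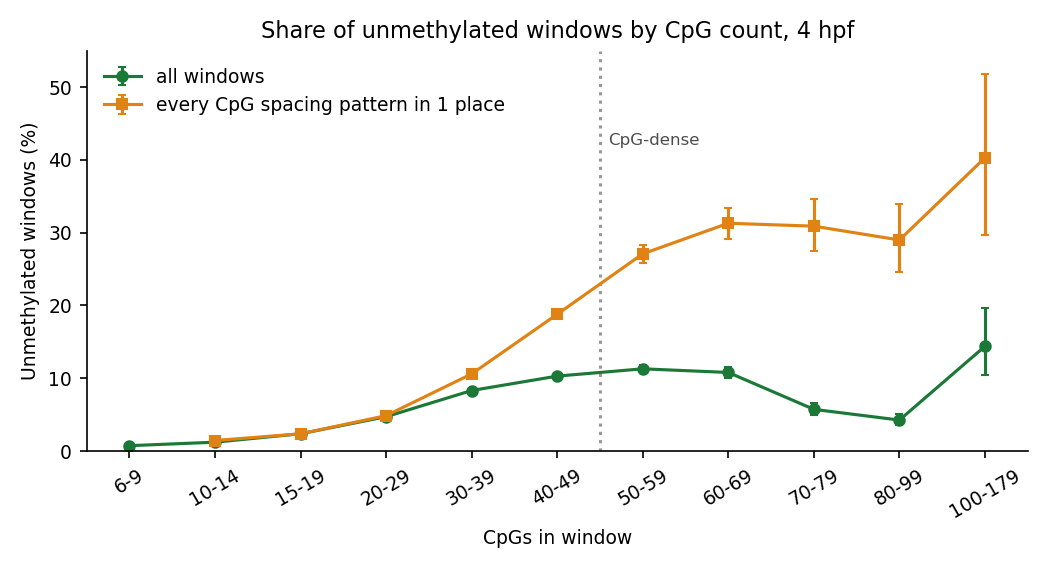
Percent of 1 kb windows that were unmethylated (under 25%) at 4 hpf, by the number of CpGs in the window. Green circles give all windows that met the read minimum and orange squares the windows whose CpG spacing patterns were each found in 1 place; bars are 95% Wilson intervals, and the dotted line marks the limit of 50 CpGs. The green points reach 11.3% at 50 to 59 CpGs and 4.26% at 80 to 99 CpGs, while the orange points lie between 27.1% and 40.3% above the limit.

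The 3 most frequent patterns are given as examples, and few of the 17751 repeated CpG-dense windows held them. The most frequent pattern alternated distances of 13 and 17 bp over a span of 180 bp and was found in 2634 places within 189 windows. Many of these places overlap within a tandem stretch, so they are not separate copies. This pattern occurred in 77 CpG-dense windows on 25 chromosomes, with median levels of 93.8%, 92.6%, 94.9% and 94.3% at 2, 4, 8 and 24 hpf. A further pattern, with successive distances of 19, 5, 11, 17, 8, 4, 4, 17, 6, 2, 8 and 24 bp, was found in 713 places within 712 windows, which is close to 1 copy per window and thus dispersed. It occurred in 167 CpG-dense windows on 25 chromosomes, with median levels of 93.4%, 92.2%, 94.9% and 93.6% and a range from 50% to 98.5% at 4 hpf. Between these 2 in frequency, a pattern with 1303 places in 432 windows had only 1 CpG-dense window, at chr22:28818001-28819000, with levels of 90.2%, 87.1%, 93.6% and 91.6%. The elements that carry these patterns were not identified here.

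Windows with a fixed period were rarer. A window was called periodic when at least 80% of its CpGs were followed by another CpG at 1 fixed distance of 20 to 400 bp. This held for 155 CpG-dense windows (0.602%), against 0.0382% of windows with 13 to 49 CpGs. The most common period was 27 bp, in 17 windows, followed by 54 bp in 14. Of the 155, 143 were methylated at all stages and 1 was unmethylated at all stages.

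The 5 windows with the most CpGs were all of low coverage in the 2 hpf library, and 3 of them were periodic at 27 bp. The densest, chr17:6855001-6856000 with 179 CpGs, had levels of 77.3%, 71.7%, 78% and 74.9% at 2, 4, 8 and 24 hpf from 1205, 657, 537 and 1027 reads. Its level lay near the limit of 75%, and its class alternated between methylated and intermediate. Chr6:54598001-54599000, with 176 CpGs and 98.9% of them in a 27 bp period, had 85.4%, 90.5%, 80% and 96.4%. Its coverage was 0.105, 0.284, 0.0379 and 0.414 of the library median, and the interval at 8 hpf, from 40 reads, was 65.2% to 89.5%. Chr17:52714001-52715000 with 157 CpGs had 91%, 93.8%, 98.6% and 95.5%, and chr3:10729001-10730000 with 155 CpGs had 89.3%, 88.3%, 88.9% and 91.1%. Chr9:55052001-55053000 with 152 CpGs, periodic at 54 bp, had 94.3%, 94.8%, 97.2% and 96.5%. Apart from the densest one, these windows were over 75% in all libraries, though the interval of chr6:54598001-54599000 at 8 hpf crossed that limit. The densest window fell just short of the 80% limit for periodic windows, with 79.3% of its CpGs at a distance of 23 bp.

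Among windows with a coverage of 0.5 to 2 times the library median in all libraries, density occurred with each class. The densest that was unmethylated at all stages was chr4:17663001-17664000, with 121 CpGs and levels of 0.76%, 0.648%, 0.45% and 0.811% from 3686, 3086, 667 and 740 reads. Next came chr4:2738001-2739000, with 95 CpGs and 0.947%, 0.937%, 0% and 1.58%. None of 343 reads was methylated there at 8 hpf, and a count of 0 allows a level of up to 0.875% there (3 reads of the total, counting error only). The densest windows that were methylated at all stages held even more CpGs. Chr24:998001-999000, with 137 CpGs, had 94.7%, 93.8%, 95.6% and 94.9%, and chr13:49101001-49102000, with 132 CpGs, had 91.8%, 90.6%, 94.9% and 91%. In these 4 windows every spacing pattern was found in 1 place, so windows with many CpGs and ordinary coverage stood at opposite ends of the scale.

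Next it was asked how many windows kept their class. A total of 22213 windows were methylated at all 4 stages, which is 96.8% of those ever methylated. Unmethylated at all stages were 2324, or 90.6% of those ever unmethylated. Intermediate at all stages were 257, or 20.9% of those ever intermediate. Together 96.2% of CpG-dense windows kept their class, against 91% of windows with 6 to 49 CpGs. The latter also had fewer reads, and the part of read number in this difference was not tested. Unmethylated at one stage and methylated at another were 9 windows (0.0349%), against 195 (0.0172%) of those with 6 to 49 CpGs. All 9 CpG-dense ones carried a repeated pattern and none of them had 100 reads in all 4 libraries.

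The unmethylated windows that left their class did so mostly at the later stages. Of 2475 windows unmethylated at 2 hpf, 2455 were unmethylated at 4 hpf and 20 were intermediate. Of 2512 windows unmethylated at 4 hpf, 2338 were unmethylated at 24 hpf, 172 were intermediate and 2 methylated. The most common such courses were unmethylated until 8 hpf and intermediate at 24 hpf, in 72 windows, and unmethylated until 4 hpf and intermediate from 8 hpf, in 49. Of the 639 windows intermediate at 4 hpf, 19 were unmethylated at 24 hpf, 356 were intermediate and 264 were methylated, with a median difference of 12.45 points. Of the 22617 windows methylated at 4 hpf, 22427 were methylated at 24 hpf.

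Single windows that differed by at least 25 points between stages were few, and at 24 hpf most of them were higher. Between 4 and 2 hpf, 16 CpG-dense windows were higher at 4 hpf and 36 lower, or 0.0621% and 0.14%. Of all 1157495 windows with 6 or more CpGs, 0.0536% were higher and 0.156% lower, so the shares in CpG-dense windows were near the background. Between 8 and 4 hpf, 117 were higher at 8 hpf and 53 lower, against a background of 0.463% higher and 0.274% lower, which is again near the 0.454% and 0.206% of the CpG-dense windows. Between 8 and 2 hpf, 50 were higher at 8 hpf and 46 lower (0.194% and 0.179%), against 0.134% higher and 0.158% lower in the background. Which of these 2 counts was larger depended on the setting: without chromosome 4, 38 were higher and 45 lower.

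Against 8 hpf, 123 CpG-dense windows were higher at 24 hpf (0.477%) and 29 lower (0.113%), while the background had 0.277% higher and 0.346% lower. Against 4 hpf, 214 were higher at 24 hpf (0.83%) and 34 lower (0.132%), with 0.573% higher and 0.4% lower in the background. Against 2 hpf, 130 were higher at 24 hpf (0.505%) and 37 lower (0.144%), with 0.233% higher and 0.283% lower in the background. In each of these 3 comparisons, which share the 24 hpf library, higher windows outnumbered lower ones among the CpG-dense windows. In the background the lower ones outnumbered the higher ones against 8 and 2 hpf, and the higher ones outnumbered the lower ones against 4 hpf. Windows already methylated at the earlier stage had no room to count as higher. They were 88%, 87.8% and 87.7% of CpG-dense windows at 2, 4 and 8 hpf. Of windows with 6 to 49 CpGs they were 91.6%, 91.2% and 90.4%. More of the CpG-dense windows could thus count as higher, and the part of the starting class in these shares was not tested. With levels averaged over single CpGs of 5 or more reads, which also leaves out windows with no such CpG, 227 were higher at 24 than at 8 hpf and 131 lower. All windows with 6 or more CpGs were not counted in this way, so these 2 counts have no background.

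**Figure D3:**
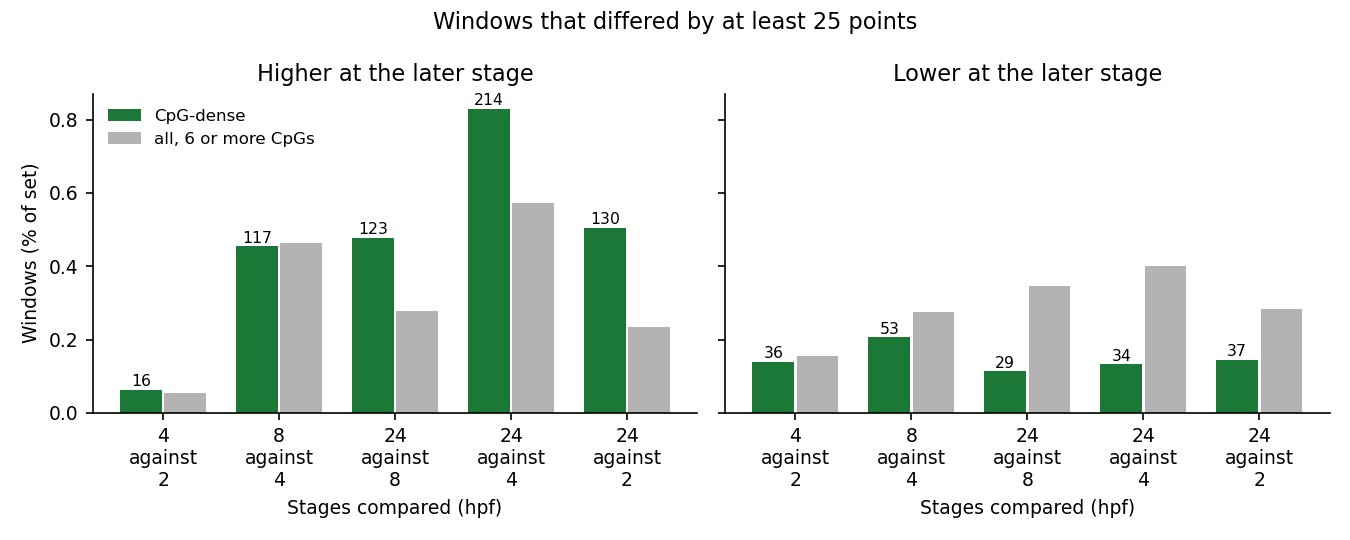
Percent of windows whose DNA methylation level was at least 25 points higher (left) or lower (right) at the later stage, for 5 pairs of libraries. Green bars are CpG-dense windows, with their number above the bar, and grey bars all windows with 6 or more CpGs. The 214 windows higher at 24 than at 4 hpf make the tallest bar, and in the right panel the green bars of the 3 comparisons with 24 hpf are below the grey ones.

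The windows that were higher at 24 hpf were mostly repeated and thinly covered. The 214 windows stood at a median of 67.4% at 24 hpf, against 30% at 4 hpf. Of them 177 (82.7%) carried a repeated pattern. Over all CpG-dense windows it was 68.9%, but most of those were methylated and had no room for such a rise. At 4 hpf 90 of the 214 were unmethylated and 124 intermediate. Of all CpG-dense windows in these classes at 4 hpf, 2289 of 2512 unmethylated and 170 of 639 intermediate ones had patterns in 1 place. The median coverage of the 214 was 0.421 of the library median at 24 hpf and 0.45 at 4 hpf. The 34 lower windows had 0.305 and 0.306, so low coverage was not particular to the higher ones. At 4 hpf all intermediate CpG-dense windows had a median of 0.443 and all unmethylated ones 1.24. In the 8013 windows with patterns in 1 place the higher ones numbered 37 against 4 hpf, with 15 lower. Against 2 hpf 16 of these were higher and 20 lower, so the higher ones did not outnumber the lower ones there. A further set was the 9597 windows with at least 100 reads and 0.5 to 2 times the median coverage in all libraries. Of these, 42 were higher at 24 than at 4 hpf and 2 lower. Against 2 hpf, 14 were higher at 24 hpf and 3 lower. The counts over all windows under the same filters are not given, so these counts have no background. The part of repeats and of coverage in the counts was not otherwise tested.

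The windows with the largest differences were taken among the 9597 that had a coverage of 0.5 to 2 times the median and at least 100 reads in all libraries. Chr19:46948001-46949000, with 56 CpGs, had 40.1%, 37.2%, 38% and 82.2% at 2, 4, 8 and 24 hpf, and with 44.2 points it had the largest rise of 24 against 8 hpf and, with 42.1 points, also that of 24 against 2 hpf. The 3 earlier libraries lay within overlapping intervals, and only the last stood apart. Chr9:28444001-28445000, with 63 CpGs and a pattern found in 132 places, had 59.2%, 44.7%, 82.7% and 69.6%, a rise of 38.0 points of 8 against 4 hpf, with a lower level again at 24 hpf. Chr21:37226001-37227000 had 66.7%, 87%, 83.7% and 71%, and its 20.2 points were the largest rise of 4 against 2 hpf in these windows, but averaged over its single CpGs of 5 or more reads, in place of pooled reads, the rise was 1.1 points.

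The largest falls were smaller than the largest rises, except between 4 and 2 hpf. Chr9:43486001-43487000 had 50%, 20.7%, 46.8% and 63.3%, a difference of -29.2 points of 4 minus 2 hpf. Chr6:2410001-2411000 had 65.5%, 78.1%, 47.4% and 47.3%, and differed by -30.8 points between 8 and 4 hpf. Averaged over single CpGs this was -5.6 points. Chr19:13205001-13206000 had 17.2%, 11.3%, 43% and 12.5%, so only the 8 hpf library, with 165 reads, stood apart, and the difference of 24 minus 8 hpf was -30.5 points, or -51.5 points averaged over single CpGs. Chr19:35739001-35740000 had 81.8%, 77.8%, 58.2% and 55.5%, a difference of -26.3 points of 24 minus 2 hpf. In this window and in chr6:2410001-2411000 both later libraries lay below both earlier ones. In chr9:43486001-43487000 the 4 hpf library was the lowest and the 24 hpf library the highest.

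The intermediate windows with the most CpGs and ordinary coverage also differed between stages. Chr1:51030001-51031000, with 100 CpGs, had 71.9%, 69.5%, 57.2% and 46.5% from 2659, 1873, 1000 and 1509 reads, lower at each later stage. Chr2:132001-133000, with 87 CpGs, had 59%, 40.9%, 57% and 56.6%, and only the 4 hpf library was apart from the others.

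An intermediate level can come from CpGs that are each partly methylated or from low and high CpGs side by side, and both were found. Single CpGs with at least 5 reads were put in the same classes. In intermediate windows 26.8% of CpGs were under 25% at 4 hpf, 40.8% from 25% to 75% and 32.3% over 75%. At 24 hpf these shares were 25.1%, 36.2% and 38.6%. In unmethylated windows 98.2% of CpGs were under 25% at 4 hpf, and in methylated windows 92% were over 75%, which the class limits favour. The part of a window before its midpoint and the part after it differed by at least 50 points in 24%, 21.7%, 31.2% and 28.4% of the 524, 552, 471 and 571 intermediate windows with at least 20 reads in both parts at 2, 4, 8 and 24 hpf, against 0.126%, 0.0844%, 0.122% and 0.104% of methylated windows. In some intermediate windows the reads thus showed a border between a low and a high stretch. As a read counts once for each CpG, 20 reads can come from few molecules. A level over 75% leaves methylated windows little room for parts that differ by 50 points, so their share is no baseline. Because whole embryos were used, CpGs of intermediate level cannot be told apart from a mixture of cells with and without methylation. Of the windows intermediate at all stages 68.5% carried a repeated pattern, near the 68.9% of all CpG-dense windows. How reads that fit several places were treated is not given, and the part of repeats in the intermediate levels was not tested.

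The coverage of CpG-dense windows was below that of the other windows in every library. The mean coverage per CpG of a window was divided by the median coverage of all nuclear CpGs of its library. The median ratio of CpG-dense windows was 0.647, 0.811, 0.63 and 0.739 at 2, 4, 8 and 24 hpf, and that of windows with 6 to 49 CpGs was 1.22, 1.14, 1.49 and 1.35. Less than 0.5 of the library median was reached by 41.3%, 33.3%, 40.7% and 35.2% of CpG-dense windows, and by 8.69%, 9.18%, 5.67% and 6.59% of the others. The median CpG-dense window had 1044, 943, 227 and 446 reads, and at 8 hpf 23.5% had fewer than 100.

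Coverage followed the number of places. At 4 hpf the median ratio was 1.33 in windows with patterns in 1 place, 0.951 with 2 to 9 places, 0.678 with 10 to 49, 0.498 with 50 to 99 and 0.389 with 100 places or more. At 24 hpf these ratios were 1.09, 1.04, 0.75, 0.546 and 0.379. The median ratio was thus lowest in windows with 100 places or more, while over all windows with patterns in 1 place it was 0.926 to 1.33. Low coverage was not confined to repeated windows. Of unmethylated windows with patterns in 1 place, 25.8% at 8 hpf and 38.7% at 24 hpf were under 0.5 of the library median. Of methylated windows with patterns in 1 place, 10.5% and 5.94% were. Whether reads that fit several places were dropped in mapping is not given in the sources used here.

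Coverage also differed between the classes, in an order that changed over the libraries. Unmethylated CpG-dense windows had median ratios of 0.853, 1.24, 0.618 and 0.538 at 2, 4, 8 and 24 hpf, and methylated ones 0.597, 0.753, 0.644 and 0.825. Within windows with patterns in 1 place the unmethylated ones had 0.867, 1.28, 0.635 and 0.546 and the methylated ones 1.23, 1.37, 1.21 and 1.49. With patterns in 1 place the unmethylated windows were thus close to the methylated ones at 4 hpf, below them at 2 hpf and far below at 8 and 24 hpf. Over all CpG-dense windows the unmethylated ones were above the methylated ones at 2 and 4 hpf, near them at 8 hpf and below them at 24 hpf. Intermediate windows had the lowest median in each library, with 0.313, 0.443, 0.405 and 0.451. At 8 hpf 29.4% of unmethylated windows and at 24 hpf 40.9% were under 0.5 of the median, against 7.56% at 2 hpf and 6.21% at 4 hpf. Stage and library cannot be told apart here.

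**Figure D4:**
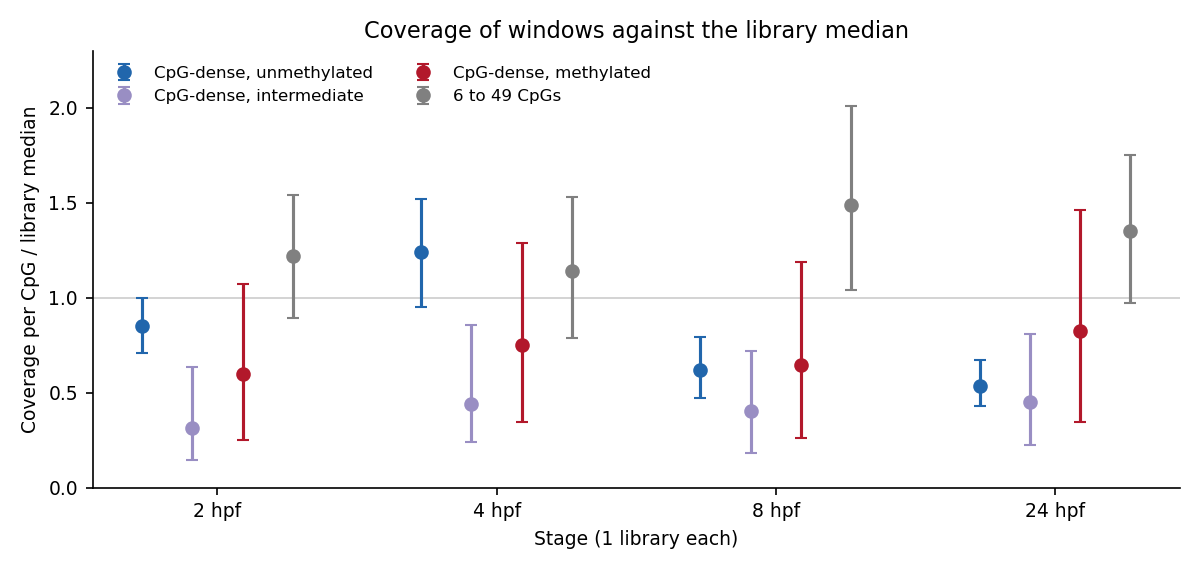
Mean coverage per CpG of a window over the median coverage of its library, at each stage (1 library each). Points are medians over windows and bars the quartiles, for unmethylated (blue), intermediate (purple) and methylated (red) CpG-dense windows and for windows with 6 to 49 CpGs (grey); the line marks a ratio of 1. The unmethylated CpG-dense windows stand at 1.24 at 4 hpf and at 0.538 at 24 hpf, and the intermediate ones at 0.451 or less in each library.

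A few CpG-dense windows had a very high coverage. More than 3 times the library median was reached by 71, 75, 469 and 726 CpG-dense windows at 2, 4, 8 and 24 hpf, and by 40 in all 4 libraries. These were 0.276%, 0.291%, 1.82% and 2.82% of CpG-dense windows, and the same limit was passed by 0.393%, 0.169%, 4.99% and 1.67% of windows with 6 to 49 CpGs, 797 of them in all 4 libraries. There were 294 CpG-dense windows over this limit at both 8 and 24 hpf and not at 2 or 4 hpf, and 0 the other way round. The same counts are not given for windows with 6 to 49 CpGs, so these have no background. In those windows too the shares over the limit were higher at 8 and 24 hpf (4.99% and 1.67%) than at 2 and 4 hpf (0.393% and 0.169%). The median ratio of the 294 CpG-dense windows was 2.19, 2.11, 3.67 and 3.98. Their median level was 92.9%, 92%, 93.1% and 91.4%, like that of other methylated windows.

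Of the 40 windows, 34 were methylated in all libraries and 6 were unmethylated at 2 and 4 hpf and intermediate at 8 and 24 hpf. The 6 are among the 49 CpG-dense windows with this course of classes. These 6 adjoin at chr4:61294001-61300000 and hold 83 to 124 CpGs each, so they are 1 stretch and not separate cases. Their levels ranged from 1.5% to 3.48% at 2 hpf, 4.67% to 11.6% at 4 hpf, 31.7% to 42.5% at 8 hpf and 59.7% to 72.4% at 24 hpf, so no 2 stages overlapped. Chr4:61299001-61300000 had 3.48%, 11.6%, 42.5% and 72.4%, from 29956, 29746, 4850 and 24936 reads, and a coverage of 10.9, 15.3, 7.92 and 24.4 times the median. Chr4:61298001-61299000 had 2.64%, 7.76%, 39.6% and 69%. The third window by coverage, chr21:28668001-28669000, had 87.1%, 86.4%, 87.6% and 85.9% at 6.74 to 12 times the median and did not share this course. The coverage of the 6 windows was 6.9 to 13.1 times the median at 2 hpf and 6.09 to 24.4 times at 24 hpf. Over all 40 windows the median was 4.39 and 8.77 times, so the 6 and the 34 others are not matched in coverage. The part of coverage in the levels was not tested.

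Neighbouring windows were given by class of the CpG-dense window, leaving out other CpG-dense windows. Around windows that were unmethylated at all stages, windows 1 kb away had median levels of 33.6%, 27.7%, 39.4% and 40.3% at 2, 4, 8 and 24 hpf, and windows 2 kb away 88.6%, 88.6%, 88.6% and 85.4%. At 10 kb the medians were 92.2%, 92%, 92.5% and 89.2%. The unmethylated stretch around such a window had a median length of 2 kb in each library, and 32.1%, 28.1%, 36.4% and 37.6% of them had no unmethylated window beside them. Stretches of 10 kb or more held 115, 116, 112 and 108 of the 2324 windows. Intermediate windows lay in methylated surroundings already at 1 kb, with medians of 83.4%, 83.7%, 84.2% and 83.4%. Around methylated windows the neighbours at 1 kb had 92.9%, 92.7%, 93.3% and 90.5%. The methylated CpG-dense windows themselves had medians of 93.4%, 92.9%, 94.1% and 92.5%, above those of their neighbours at each stage. They were chosen for being methylated at all stages and the neighbours were not chosen by level. This choice favours the order, so no difference between the windows and their neighbours is drawn from it.

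**Figure D5:**
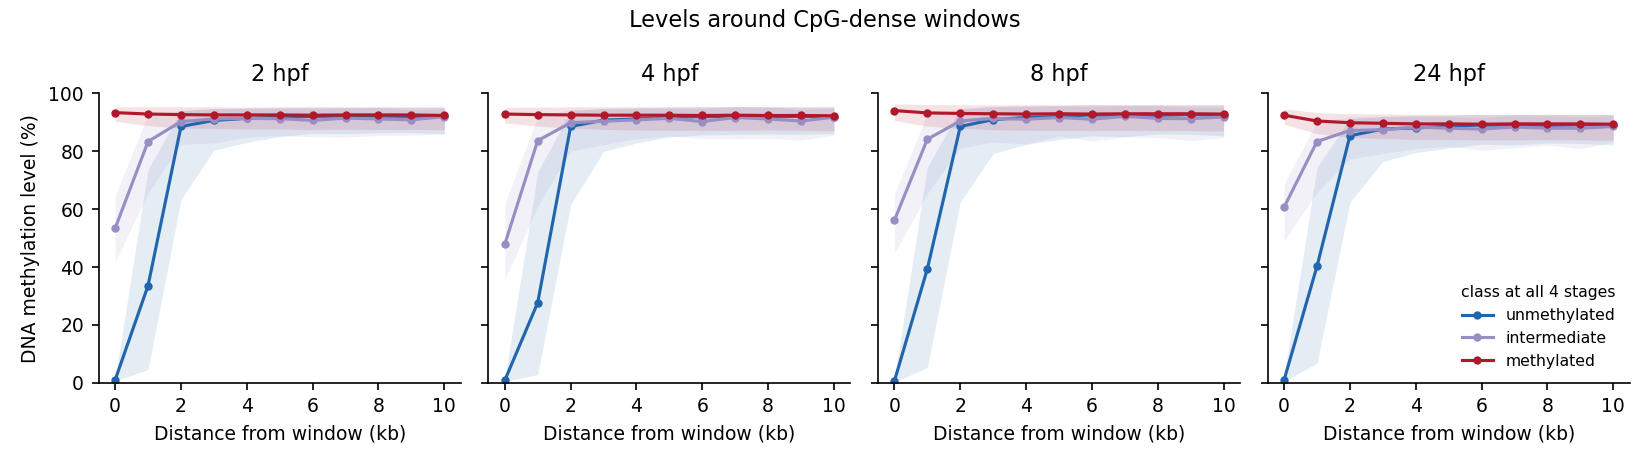
Median DNA methylation level of windows at 0 to 10 kb from CpG-dense windows, by the class the CpG-dense window kept at all 4 stages (blue unmethylated, purple intermediate, red methylated), with quartiles shaded. The point at 0 kb is the CpG-dense window itself. At 24 hpf the blue line stands at 1.01% at 0 kb, 40.3% at 1 kb and 85.4% at 2 kb, and the red line at 92.5% at 0 kb and 90.5% at 1 kb.

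CpG-dense windows stood alone or in runs, and windows in runs of 3 kb or more were nearly all methylated. Methylated at all stages were 81.5% of single windows, 87.9% of windows in runs of 2 kb and 96.2% in runs of 3 kb. There were 19592 runs of adjoining windows, of which 16310 were a single window. Of the single windows 12.2% were unmethylated at all stages, against 8.54% in runs of 2 kb, 1.79% in runs of 3 kb and 1 of 1584 windows in runs of 4 kb. None of the 1680 windows in runs of 5 kb and none of the 588 in runs of 6 kb was. A repeated pattern was carried by 62.6% of single windows, 95.2% of windows in runs of 5 kb and 97.4% in runs of 6 kb. In runs of 5 and 6 kb the median window held a pattern with 440 and 472 places. The longest run was chr4:52066001-52078000, with 879 CpGs in 12 kb and levels of 94.3%, 94.1%, 94.6% and 93.3% at 2, 4, 8 and 24 hpf. The next, chr22:25998001-26007000, had 93.8%, 94%, 94% and 92.3%. Chr3:2968001-2976000 had 94.1%, 95.1%, 94% and 93.6%, and chr3:7251001-7259000 had 95.7%, 95.1%, 95.5% and 93.6%. Chr6:49210001-49218000 had 94.4%, 95.1%, 94.3% and 91.8%, and its coverage was 0.378, 0.466, 2.82 and 2.99 of the median. All 5 long runs kept a level over 90%, also the one whose coverage differed most between libraries.

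The windows were found on each chromosome, at 1.65% to 2.32% of its windows. Chromosome 4 had the most, 1440, of which 4.93% were unmethylated at all stages and 78% carried a repeated pattern. On the other chromosomes the unmethylated share was between 5.81% (chromosome 22) and 12.1% (chromosome 21). Within 500 kb of a chromosome's first or last CpG, 3.18% of windows were CpG-dense, against 1.88% elsewhere. Of the CpG-dense windows near an end 24.7% were unmethylated at all stages, against 8.52% of those elsewhere.

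Lastly, 6287 windows with 50 or more CpGs (19.6%) did not meet the read minimum, and 2631 of them had no read in any library. A repeated pattern was found in 99% of them, and their median window held a pattern with 460 places. The unmethylated share given above is therefore that of CpG-dense windows that could be read in all 4 libraries.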

How the data were processed

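Whole-genome bisulfite data of whole zebrafish embryos were taken as deposited, with 1 file per library listing 24222562 CpGs, 402 of them mitochondrial and left out. Per the paper's methods reads were mapped to Zv9 (named danRer7 in the submitters' processing notes); the aligner and the treatment of duplicates and of reads with several matches were not given in the sources used here, which could affect the coverage and levels of repeated windows. The deposited values are the fraction of methylated reads and the coverage per CpG; their product lay within 0.00124 of a whole number of reads in all libraries.

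CpGs were put in windows by position, and fractions were multiplied by coverage, rounded and summed. Coordinates are Zv9, counted from 1. Classes used the limits of 25% and 75%. With 1 library per stage, counts and shares were given without tests, Wilson intervals for counting error only. Python 3.11.15, numpy 2.4.6 and pandas 2.3.3 were used, and class assignment, differences and spacing patterns were tested on simulated data. Alternatives were the read minimum, CpG count, grid, class limits, size of difference, pooling, depth, chromosome 4 and pattern length.

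The windows, lists and tests were chosen with earlier results of these data known. The text names the 5 windows with the most CpGs, the 5 longest runs, for each lasting class the 2 windows with the most CpGs at 0.5 to 2 times the median coverage, the largest rise and fall of 4 against 2, 8 against 4, 24 against 8 and 24 against 2 hpf, the 3 windows with the highest coverage in their lowest library and the 3 most frequent patterns (each sharing no window with a more frequent one). None of the 6 4C bait positions of the study fell in a CpG-dense window. The 6 windows on chromosome 4 were chosen after their values were seen.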

Additional observations from a re-analysis of the deposited data

Results flagged for a closer look

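The windows with 50 or more CpGs that were left out by the read minimum entered no comparison, and the few reads they had were methylated in every library. Pooled over the 6287 windows, 89.8% of 250681 reads were methylated at 2 hpf, 90.5% of 308177 at 4 hpf, 90.3% of 41756 at 8 hpf and 90.5% of 127225 at 24 hpf. They came from 2996, 3281, 2756 and 3184 windows with at least 1 read. Their mean coverage was 0.0214, 0.0374, 0.016 and 0.0293 of the library median, so these values describe the reads that could be placed.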

How the results depend on the processing

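Of 338 values of the main results under alternatives, 177 stayed within set limits. These were 1.5 times the count, the counting interval or, for medians 1 kb from unmethylated windows, the quartiles over windows, which are wide. All counts of classes and of differing windows did so when the grid was shifted by 500 bp, when windows over 3 times the median or chromosome 4 were left out, and when libraries were thinned to the 8 hpf depth. Values stand in the order of 2, 4, 8 and 24 hpf, and counts of windows that differed by 25 points in the order of 4 against 2, 8 against 4, 24 against 8, 8 against 2, 24 against 4 and 24 against 2 hpf. Counts of differing windows under the alternatives are for CpG-dense windows only and have no background. The set itself changes with the CpG count, and so do its counts. With 40 CpGs or more, 6088, 6257, 6003 and 5680 windows were unmethylated, 2230, 2269, 2563 and 2685 intermediate and 53971, 53763, 53723 and 53924 methylated. At all stages 5558 were unmethylated, 985 intermediate and 52448 methylated. By 25 points 43, 359, 426, 155, 747 and 412 windows were higher and 124, 159, 105, 144, 101 and 98 lower. The median coverage ratio was 0.762, 0.995, 0.803 and 0.893, and the median difference of 24 minus 8 hpf was -1.36 points. With 60 CpGs or more, 947, 952, 947 and 923 were unmethylated, 160, 179, 206 and 212 intermediate and 10870, 10846, 10824 and 10842 methylated. At all stages 909 were unmethylated, 71 intermediate and 10702 methylated. By 25 points 0, 29, 31, 16, 37 and 27 windows were higher and 6, 21, 8, 20, 13 and 13 lower, and the coverage ratio was 0.512, 0.632, 0.483 and 0.602. With at least 100 reads, 373, 411, 433 and 452 windows were intermediate, 4, 62, 53, 19, 123 and 62 windows were higher and 13, 14, 12, 17, 17 and 22 lower, and the coverage ratio was 0.83, 1.06, 0.823 and 0.992. Limits of 20% and 80% gave 1032, 1103, 1182 and 1270 intermediate windows and 468 at all stages. By 40 points 2, 14, 33, 11, 54 and 35 windows were higher and 3, 8, 6, 11, 6 and 6 lower. With the mean of fractions, 226 windows were higher at 8 than at 4 hpf and 138 lower, 227 were higher at 24 than at 8 hpf and 131 lower, 168 were higher at 8 than at 2 hpf and 141 lower, and the median difference of 24 minus 8 hpf was -1.30 points. Of the named differences, 3 falls were under 25 points with it, at -24.7, -5.6 and -18.8 points, the rise of 20.2 points was 1.1 and the fall of -30.5 points was -51.5. The coverage ratio was 0.662, 0.832, 0.642 and 0.756 without chromosome 4, 0.582, 0.733, 0.472 and 0.615 against the median of CpGs with a read, and 0.519, 0.684, 0.5 and 0.55 from the median over a window's CpGs. Of single CpGs with at least 10 reads in intermediate windows, 42.3%, 46.5% and 41.8% were intermediate at 4, 8 and 24 hpf. The median level 1 kb from unmethylated windows was 33.6%, 27.7%, 39.4% and 40.3%. With neighbours of at least 10 CpGs and 50 reads it was 24%, 18.4%, 30.2% and 32.4%, within the quartiles but lower at each stage. Among windows with patterns in 1 place, chosen after seeing the data, 154, 170, 204 and 243 were intermediate and 5573, 5554, 5539 and 5537 methylated, with 81 and 5458 at all stages. By 25 points 3, 24, 14, 8, 37 and 16 windows were higher and 7, 12, 9, 13, 15 and 20 lower, the median difference of 24 minus 8 hpf was -0.79 points, and the coverage ratio was 1.05, 1.33, 0.926 and 1.09. With at least 100 reads and a coverage of 0.5 to 2 times the median, also chosen after seeing the data, 0, 18, 12, 2, 42 and 14 windows were higher and 3, 1, 2, 0, 2 and 3 lower. The balance of higher and lower windows turned round for 8 against 2 hpf, with 50 higher and 46 lower, to 38 and 45 without chromosome 4, 50 and 54 when thinned, 16 and 20 with 60 CpGs or more and 8 and 13 with patterns in 1 place; for 24 against 2 hpf it did so with patterns in 1 place alone. No paired analysis was possible because each stage has 1 library, and none could be left out for the same reason. Where a value moved with the set of windows, fewer or more windows were counted; for the other settings the cause was not tested. At 8 hpf depth limits single windows, with a median of 227 reads.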
